A study of Mus musculus with 12 samples.

Results

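Mature migratory dendritic cells were 484 of the 116375 cells that could be assigned to a tumour sample in 6 single-cell libraries from mouse SCC35 tumours. They were chosen by a gate on raw counts of unique molecular identifiers (UMIs, 1 per captured RNA molecule). A cell needed at least 1 UMI of Ccr7, at least 2 of Fscn1 and at least 3 in all of the MHC class II genes H2-Aa, H2-Ab1 and H2-Eb1, with no UMI of Cd3d, Cd3e, Cd3g, C1qa, C1qb or C1qc. These values therefore define the members and are not findings. A cell also needed at least 300 genes, at most 15% mitochondrial UMIs, and a top hashtag of at least 20 counts and at least 3 times the second.

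Ccr7 encodes the receptor for CCL19 and CCL21, the chemokines that guide dendritic cells into lymphatic vessels and lymph nodes. Fscn1 encodes fascin, which bundles actin in the long processes of mature dendritic cells. Dendritic cells that have taken up material and received an activating signal are known to reduce uptake, move antigen to the surface on MHC molecules, raise costimulatory ligands and cytokines, and switch on NF-kB target genes. In tumours such cells are also known to carry regulatory molecules, among them PD-L1, CD200 and the enzyme IL4I1.

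The study followed tumours from lines with and without Mif, the gene of macrophage migration inhibitory factor, a secreted cytokine whose receptor includes CD74. The control group held tumours of the lines SCC35 Mif KO control 15 and SCC35 Mif KO control 18, and the knockout (KO) group held tumours of SCC35 Mif KO 19 and SCC35 Mif KO 24, each sampled at days 0, 6, 10 and 16. Live cells were sorted after labelling of each sample with a hashtag antibody. The labels do not say whether a line is 1 clone, nor give the strain, sex or age of the hosts. The knockout is a property of the injected line as the labels name it, and the labels give no genotype for host cells, so members in both groups are described by the line of their tumour. A further 3 samples, called WT in the authors' hashtag sheet and in no group of the labels, entered no comparison between groups. Nothing in the labels says whether samples with the same line and day came from separate animals, so p-values measure the spread between these samples, which may be technical.

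There were 45 samples with assigned cells, of which 38 were taken after day 0, 18 of control lines, 17 of KO lines and 3 called WT. Of the members, 126 came from control tumours, 338 from KO tumours and 20 from WT tumours. Lines 15, 18, 19 and 24 gave 69, 57, 197 and 141 members. Members had a median of 3402 UMIs, with library medians from 2407 to 4045. Across libraries 7201 of 108917 distinct barcodes occurred more than once, but no member's barcode belonged to a member of another library. Mif itself, summed per tumour over cells without a UMI of the leukocyte gene Ptprc, ran from 1624 to 2689 CPM (counts scaled to 1000000 UMIs per sum) in the 18 control tumours, with a median of 2108. In the 17 KO tumours it ran from 83.8 to 1188 CPM, with a median of 427, so the groups did not overlap.

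Genes outside the gate were also looked at for the label. They were chosen with earlier results of these data known, so they are not an independent check of it. Of 8 further genes known from mature dendritic cells, at least 2 were detected in 455 members (94.0%) and none in 7. Ccl22, the chemokine that binds CCR4 on regulatory and helper T cells, had a UMI in 58.3% of members, against 0.359% of cells without Ptprc after day 0. Il4i1, an amino acid oxidase, was in 63.4% against 0.430%. Socs2, an inhibitor of cytokine signalling, was in 70.5% against 3.70%. Relb, the NF-kB subunit of the alternative pathway, was in 72.5% against 18.8%, and Cacnb3 in 66.3% against 15.7%. The median depth was 3402 UMIs in members and 5769 in the cells without Ptprc. Of the gate genes, Fscn1 was not confined to dendritic cells. At least 2 of its UMIs were in 16.7% of the cells without Ptprc and 20.8% of day 0 cells. Ccr7 had a UMI in 1.33% and 0.399% of these cells. Ptprc, which encodes CD45, had a UMI in only 30.8% of members, against 59.9% of type 2 and 77.5% of type 1 conventional dendritic cells.

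Most lists of markers for other cells were low in members. None of 7 T-cell, 5 NK-cell, 5 B-cell, 5 neutrophil, 5 mast-cell, 5 plasmacytoid, 8 macrophage, 4 endothelial, 4 keratinocyte or 4 Langerhans-cell markers had a UMI in 10% of members or more. The gate had already left out cells with a Cd3 or C1q UMI, so low T-cell and macrophage markers are in part set by it. Of 10 type 1 markers, 3 did, Irf8 in 76.0%, Batf3 in 34.1% and Cadm1 in 22.5%. The defining type 1 genes Xcr1 and Clec9a were in 1.03% and 2.48%, and the type 2 gene Cd209a, which with them defines the comparison classes below, was in 0.413%. Of 10 type 2 markers 3 passed 10%, at most 42.6%, and of 6 monocyte markers 2 did, at most 19.6%. Markers at 0 in every member included Trbc2 and Cd2 (T cells), Klrb1c (NK cells), Cxcr2 and Retnlg (neutrophils), Fcer1a (mast cells), Emcn (endothelium), Krt1 (keratinocytes) and Cd209f (Langerhans cells). Of 8 fibroblast and non-immune genes, 6 passed 10%, led by Sparc in 55.2%. Their summed level per tumour with at least 10 members ran from 1111 to 8830 CPM in 5 control tumours and from 1006 to 4420 CPM in 9 KO tumours.

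The non-immune signal was not spread evenly over members. The 128 members (26.4%) above 2 times the median UMI count of their library's members held 62.3% of all member UMIs. Their median was 22.3 non-immune UMIs per 10000, beside 22.8 in cells without Ptprc, and the other 356 members had 3.27. The proliferation gene Mki67 had a UMI in 43.0% of the deep members and 12.1% of the others. Those are raw counts in sets made by depth, and the part of depth in that difference was not tested. Il4i1 was in 52.3% of the deep members and 67.4% of the others, and Socs2 in 60.2% and 74.2%. Deep members were 25.4% of control and 27.5% of KO members. Hashtags mark doublets between samples only and no doublet caller was run, so the part of doublets in these values was not tested. Members at or under that depth are called the shallower members below.

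**Figure D1:**
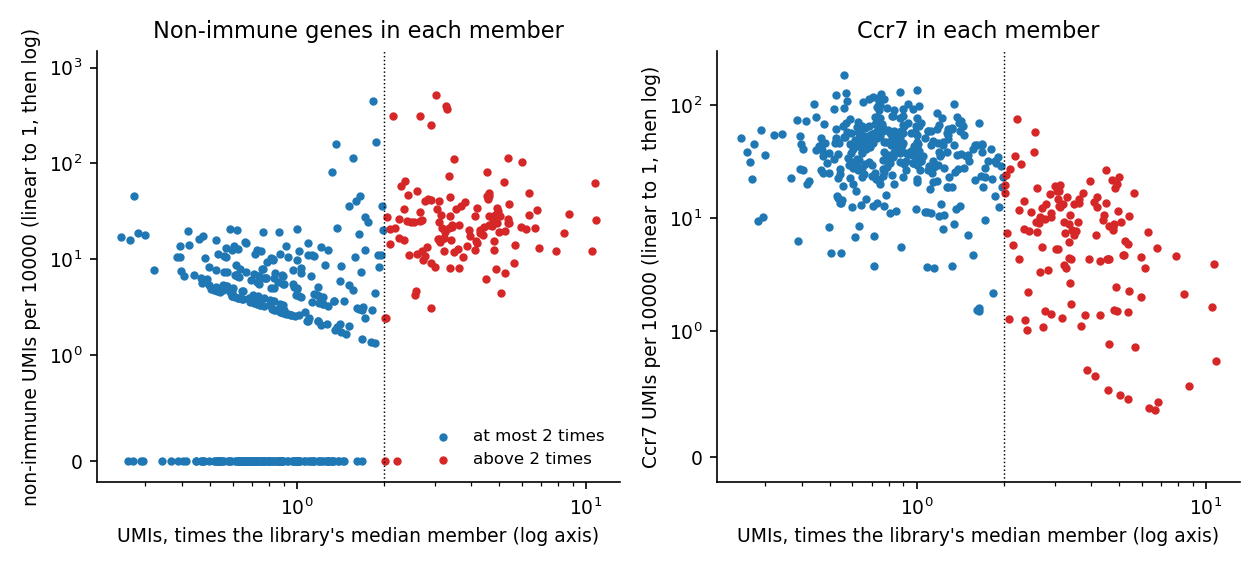
Each point is 1 member, placed by its UMIs relative to the median member of its library (log axis), against its non-immune UMIs per 10000 (left) and its Ccr7 UMIs per 10000 (right), with vertical axes linear to 1 and log above. The 128 members right of the dotted line at 2 times the median have a median of 22.3 non-immune UMIs per 10000, against 3.27 for the 356 members to its left. In the right panel the lower edge of the points is set by the gate, which asks for 1 Ccr7 UMI at any depth.

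The thresholds cut through a gradual range. The 111 cells with exactly 1 Fscn1 UMI that met every other criterion had at least 2 of the 8 further genes in 56.8%, and the 77 members with exactly 2 had them in 77.9%. The 369 cells outside with no Ccr7 UMI had them in 21.1%, and the 31 members with exactly 1 Ccr7 UMI in 64.5%. The 31 cells left out for a Cd3 UMI (93.5%) and the 110 left out for a C1q UMI (89.1%) were near the 94.0% of all members.

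Every tumour sampled after day 0 held members, and no day 0 sample did. Among 5769 day 0 cells there were 0 members, which allows a share of up to 0.0520%, a limit that covers counting error only. The labels do not say what a day 0 sample is. At day 6 members were 0.805% ± 0.400 (SD, n = 11) of assigned cells in the 4 lines, at day 10 0.234% ± 0.185 (n = 12) and at day 16 0.374% ± 0.264 (n = 12). The day 6 samples ran from 0.211% to 1.44%. The day 16 mean was lower than the day 6 mean by 0.431 percentage points (two-sided permutation test with 100000 resamples, p = 0.00696, adjusted over the 2 main share comparisons p = 0.0139). With labels permuted within line the permutation p was 0.00081, and within library and line it was 0.00177. Without line 15 the difference was -0.356 points and missed the threshold (permutation p = 0.0755). Taken as a share of members and both conventional dendritic cell gates together, the direction turned, with day 16 higher by 0.106 points (permutation p = 0.983). The drop from day 6 to day 10 was 0.570 points (permutation within line, p = 0.0001, adjusted over 3 pairs of days p = 0.0003). Days 10 and 16 differed by 0.140 points, less than the spread between tumours (permutation within line, p = 0.119).

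Tumours of the KO lines held members at 0.591% ± 0.417 of assigned cells (SD, n = 17), and tumours of the control lines at 0.339% ± 0.289 (n = 18). The KO tumours ran from 0.108% to 1.44% with a median of 0.482%, the control tumours from 0.0393% to 1.01% with a median of 0.220%, and the ranges overlapped widely. The difference of 0.251 points had a two-sided permutation p of 0.0451 (adjusted p = 0.0451), and 0.0108 with labels permuted within day. It missed the threshold without line 18 (0.122 points, permutation p = 0.464), without line 19 (0.191 points, permutation p = 0.143) and without line 24 (0.305 points, permutation p = 0.0677). The line means were 0.469% (15), 0.210% (18), 0.644% (19) and 0.531% (24). Over these 4 means the exact permutation p was 0.333, the smallest that 2 lines against 2 allow. In the 2 mixed libraries the difference was 0.232 points (n = 6 and 6, permutation within library, p = 0.333). Line and library cannot be told apart in the 4 libraries of 1 line each.

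**Figure D2:**
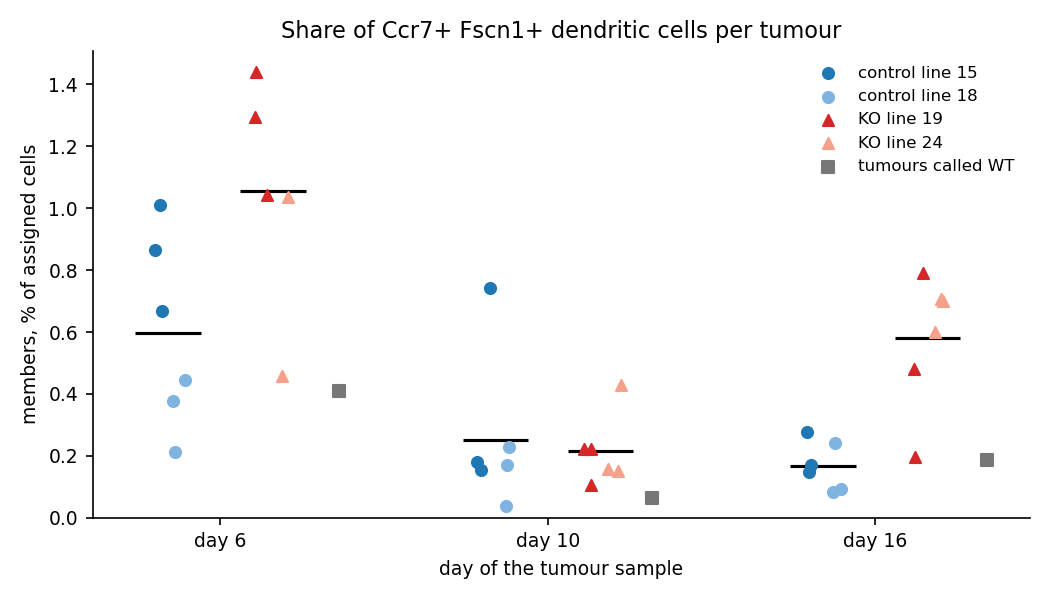
Share of members among assigned cells (%) in each tumour sample by day, coloured by line, with black bars at the group means and squares for the tumours called WT. At day 16 the control tumours sit between 0.0842% and 0.276%, below 5 of the 6 KO tumours.

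Taken day by day, KO and control tumours passed the test at day 16 alone, a comparison singled out after the shares were seen, while the difference at day 6 was larger in points (0.459 against 0.411). The 6 control tumours of day 16 ran from 0.0842% to 0.276%, and the 6 KO tumours from 0.195% to 0.790%. KO tumours averaged 0.579% ± 0.216 and control tumours 0.169% ± 0.0778 (exact permutation p = 0.00649, adjusted over 3 days p = 0.0195). Without line 24 that difference was 0.320 points (exact permutation p = 0.0714). At day 6 the means were 1.05% ± 0.374 (n = 5) and 0.596% ± 0.306 (n = 6), with an exact permutation p of 0.0519 (adjusted p = 0.0779). At day 10 they were 0.215% ± 0.113 and 0.253% ± 0.248 (n = 6 and 6, exact permutation p = 0.803). In KO tumours the share was higher at day 16 than at day 10 by 0.364 points (n = 6 and 6, exact permutation p = 0.00866, adjusted over 6 comparisons p = 0.0173), and in control tumours it was lower by 0.0842 points (n = 6 and 6, exact permutation p = 0.619). The difference between those changes was 0.448 points (permutation of group labels within day, p = 0.0117, adjusted over 3 pairs of days p = 0.0352). It missed the threshold without line 15 (0.371 points, permutation p = 0.0881) and without line 24 (0.389 points, permutation p = 0.0699).

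The share depends on what it is divided by. Per 100 cells with a Ptprc UMI, members averaged 2.99 in KO and 1.86 in control tumours. The day 16 values per 100 such cells were 0.875 and 0.985 for lines 15 and 18, and 3.73 and 2.09 for lines 19 and 24. Relative to members and both conventional dendritic cell gates together, KO and control tumours differed by 2.82 points (permutation p = 0.662). At day 16 that difference was 5.65 points (exact permutation p = 0.613). The members' share of those 3 gates was not shown to differ between groups. The median depth of all assigned cells ranged from 2707 to 9264 UMIs over KO tumours and from 3050 to 10692 over control tumours, and with the gate applied to cells thinned to 2000 UMIs the overall difference was 0.228 points (permutation p = 0.0557). With the shallower members alone it was 0.189 points (permutation p = 0.0418), and day 16 minus day 6 was -0.302 points (permutation p = 0.00926).

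Members were compared with conventional dendritic cells that had no Ccr7 UMI, paired by tumour or by line. Type 1 cells (40) carried at least 2 UMIs of Xcr1 and Clec9a, the genes of the receptors used by cross-presenting dendritic cells, and type 2 cells (172) carried at least 2 of Cd209a, with the same MHC class II, Cd3 and C1q criteria. The gate genes of all classes were left out of the tests. Tumours with at least 10 cells of both classes numbered 3 for type 2, all of KO lines, at line 19 day 6 (62 members and 13 type 2 cells), line 24 day 10 (26 and 16) and line 19 day 6 in a mixed library (43 and 13). For type 1 no tumour had enough cells, at most 4. Sums per line over all lines, WT included, were therefore added after the data were seen. They took cells at most 2 times the median UMIs of their own class in their library, so the cut differed by class. This left 356 members, 141 type 2 and 37 type 1 cells, with 3 type 1 cells each in lines 15, 18 and WT. Values by line below are from these shallower cells unless every depth is named. Sums per line pool tumours and days, so the classes were not matched for tumour or day. At days 6, 10 and 16, members of every depth numbered 248, 80 and 156. Type 2 cells numbered 69, 63 and 40, and type 1 cells 18, 9 and 13. The part of day in the values by line was not tested.

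Against type 2 cells in the 3 tumours, 100 of 1448 genes were higher in members (6.91%) and 100 were lower (6.91%), by edgeR's quasi-likelihood test with the tumour as a block and a threshold of 0.05 on the adjusted p. By line, 554 of 2427 were higher (22.8%) and 506 lower (20.8%). Of the 200 calls by tumour, 196 were tested by line, 195 had the same direction and 189 were called again, in sums that share cells with the 3 tumours. Against type 1 cells by line, 401 of 1716 were higher (23.4%) and 275 lower (16%). With cells of every depth the shares by line were 9.39% higher and 9.27% lower of 4110 genes against type 2 cells, and 16.5% and 10.1% of 2115 against type 1 cells. The fit by tumour was not run on the shallower cells. Il12b and Ccl22 were higher in members, Clec10a, Cd14 and H2-DMb1 lower, against type 2 cells. A gene could enter a test through its level in members alone, so counts over the gene lists describe the tested genes only.

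**Figure D3:**
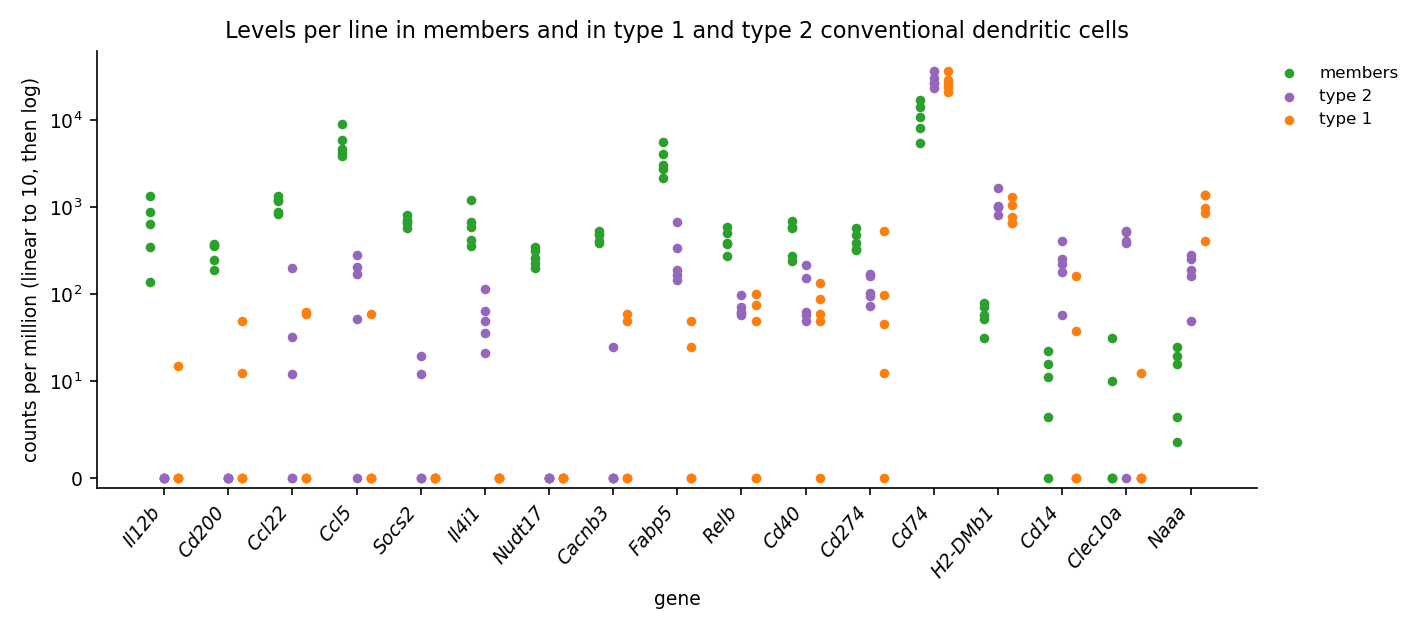
CPM (vertical axis linear to 10, then log) of 17 genes in summed members, type 2 and type 1 conventional dendritic cells, with 1 point per line (15, 18, 19, 24 and WT). Cells had at most 2 times the median UMIs of their own class in their library. Il12b lies between 139 and 1350 CPM in members and at 0 in type 2 cells of all 5 lines.

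Cytokines and costimulatory molecules differed by gene and by the cells summed. Il12b, which encodes the p40 subunit shared by IL-12 and IL-23, had 179, 467 and 217 CPM in members of the 3 tumours and 0 in all 3 sets of type 2 cells. Members lay above type 2 cells in each tumour, at least 12.4-fold higher over the group (a floor of 3 counts over the type 2 cells, adjusted p = 4.2e-05). By line it was 634, 872, 353, 1350 and 139 CPM in lines 15, 18, 19, 24 and WT, and in type 1 cells it was 0 except for 15.1 CPM in line 24. Cd40, the receptor through which helper T cells license dendritic cells, was 337, 262 and 171 CPM against 143, 145 and 140 CPM in the 3 tumours, a log2 fold change of 0.87 ± 0.36 (SE, adjusted p = 0.14). By line it was higher, with a log2 fold change of 2.18 ± 0.24 (adjusted p = 3.0e-11), and 1.56 ± 0.22 at every depth. Cd86, a ligand of CD28 and CTLA-4, gave 0.11 ± 0.35 by tumour (adjusted p = 0.91) and 0.83 ± 0.21 by line (adjusted p = 0.00074), but 0.45 ± 0.19 by line at every depth (adjusted p = 0.11). Cd83, a surface marker of mature dendritic cells, was -0.21 ± 0.29 by tumour (adjusted p = 0.76), 0.19 ± 0.17 by line at every depth (adjusted p = 0.52) and 0.54 ± 0.16 by line in the shallower cells (adjusted p = 0.0049). The last call was lost without line 15 (0.44, adjusted p = 0.082). Of 19 genes on the costimulation list, 5 were tested by tumour, with Il12b higher and Il1b lower. By line 13 were tested, of which 12 were higher, among them Cd70, Tnfrsf4, Il15ra and Cd80, and Il1b was lower. At every depth 8 of 12 were higher, beside 9.39% of all genes, and in the shallower cells 22.8% of all genes were.

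The chemokines moved in both directions. Ccl22 was 495, 410 and 321 CPM in members and 42.8, 0 and 17.5 CPM in type 2 cells, a log2 fold change of 4.15 ± 0.52 (adjusted p = 2.5e-05), and the 2 classes did not overlap. Ccl5, a chemokine that attracts T cells, was 1556, 5404 and 1374 CPM against 343, 48.5 and 140 CPM (3.55 ± 0.43, adjusted p = 2.0e-05). Against type 1 cells Ccl5 was 4729 CPM by line sums to 1 count, a ratio of 925 with a counting interval from 166 to 36527. Ccl17, which shares CCR4 with CCL22, had 161 CPM in the summed members and 5.11 CPM (1 count) in type 1 cells, but only 12.4% of members had a UMI. Cxcl10, a CXCR3 ligand that recruits effector T cells, was 150, 45.6 and 303 CPM in members and 856, 775 and 1876 CPM in type 2 cells (-2.77 ± 0.29, adjusted p = 7.3e-06). Of 12 chemokines on the list, 10 were tested by line. Of these 4 were higher (Ccl5, Ccl22, Ccl17 and Cxcl16) and 6 lower (Ccl3, Ccl4, Ccl9, Cxcl2, Cxcl9 and Cxcl10) than in type 2 cells. Over all genes 22.8% were higher and 20.8% lower.

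Regulatory molecules were higher in part. Socs2 was 384, 365 and 211 CPM in members against 14.3, 0 and 0 CPM in type 2 cells (1 count, a ratio of 53.6 with a counting interval from 9.54 to 2125). Il4i1 was 371, 445 and 199 CPM against 42.8, 48.5 and 17.5 CPM (3.23 ± 0.46, adjusted p = 8.1e-05), and by line at least 44.8-fold higher than in type 1 cells, which had 0 counts. Cd274, the gene of PD-L1, was 266, 103 and 144 CPM against 114, 24.2 and 140 CPM (0.86 ± 0.42, adjusted p = 0.22). By line Cd274 was 571, 330, 386, 326 and 476 CPM in lines 15, 18, 19, 24 and WT against 74.4 to 172 CPM in type 2 cells (1.83 ± 0.24, adjusted p = 3.2e-09). Cd200, the ligand of an inhibitory myeloid receptor, was 189 to 377 CPM by line and had 0 counts in type 2 cells, at least 35.3-fold lower there. By line 10 of the 17 list genes were tested, 7 higher than in type 2 cells and 3 lower (Lgals9, Socs3 and Tgfb1). Over all genes 22.8% were higher and 20.8% lower. At every depth 6 of 12 were higher and 4 lower, Havcr2 among the lower, beside 9.39% and 9.27% of all genes.

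**Figure D4:**
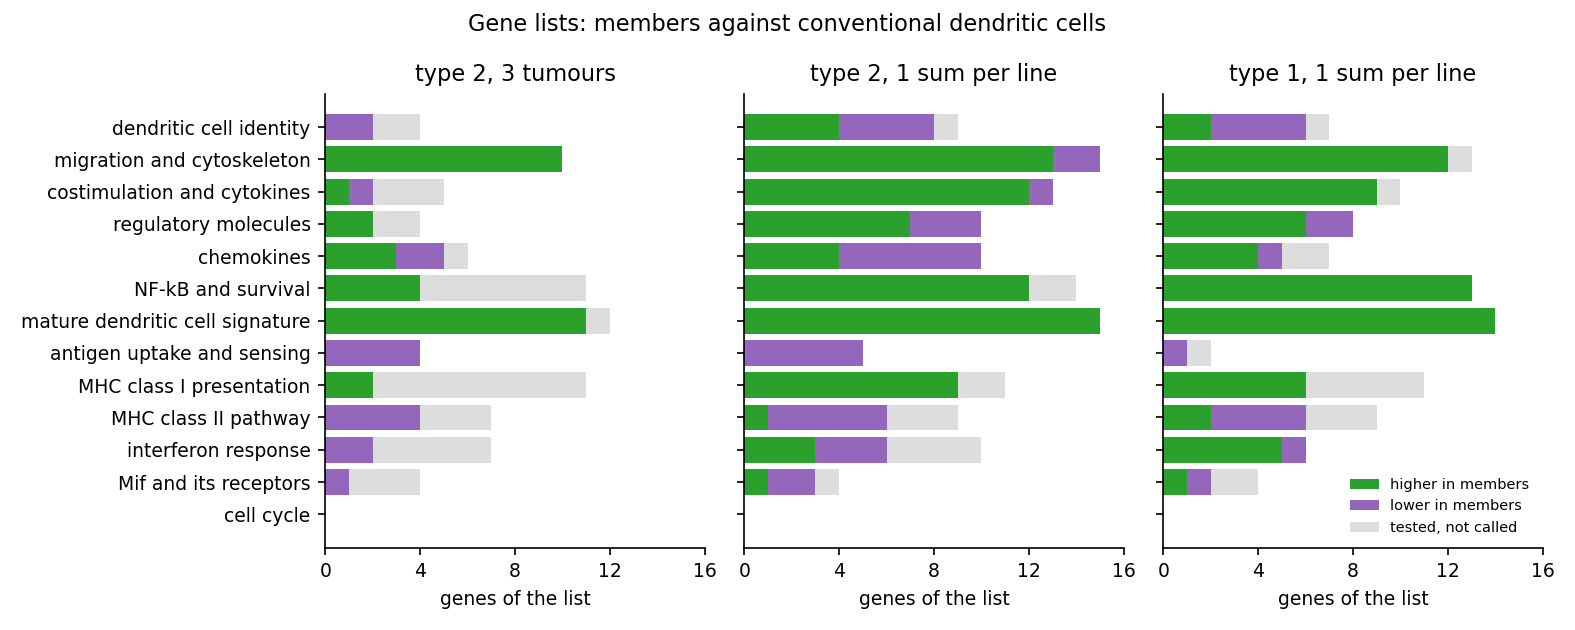
Number of genes on each of 13 lists that were tested and called higher (green) or lower (purple) in members, or tested and not called (grey), against type 2 cells in 3 tumours (left), type 2 cells by line (middle) and type 1 cells by line (right). All 15 tested genes of the mature dendritic cell signature are higher by line than in type 2 cells, beside 22.8% of all genes. Of the dendritic cell identity list 4 of 9 are higher there and 4 lower. No cell cycle gene was tested in these fits.

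Some NF-kB and survival genes were higher in members by tumour, and most of those tested were by line. Relb was 331, 251 and 233 CPM against 28.5, 24.2 and 52.6 CPM in type 2 cells (2.95 ± 0.49, adjusted p = 3.4e-04). Bcl2l14, of the BCL2 family, was 196, 160 and 129 CPM against 0, 24.2 and 0 CPM (1 count, a ratio of 28.2 with a counting interval from 4.99 to 1122). Of 11 tested list genes 4 were higher by tumour, with a median log2 fold change of 0.90 beside 0.05 over all 1448 genes. By line 12 of 14 were higher than in type 2 cells (median 1.22) and 13 of 13 than in type 1 cells (median 2.55, beside 0.02 over all 1716 genes). With cells of every depth the counts by line were 9 of 14 and 9 of 12, beside 9.39% and 16.5% of all genes. Among them Nfkb2, which encodes the precursor of the p52 partner of RELB, was 317, 220, 287, 211 and 179 CPM in lines 15, 18, 19, 24 and WT, and 0 to 104 CPM in type 2 cells.

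The promoter of Nfkb2 is shown because the gene was among those higher in members and its product partners with RELB. The sequence is the 250 bases before its RefSeq start on GRCm38.p6 at chr19:46304487-46304736, plus strand, with capitals at matches to a kB-type motif on either strand, GGG and TTCC with any 3 bases between them.
Nfkb2: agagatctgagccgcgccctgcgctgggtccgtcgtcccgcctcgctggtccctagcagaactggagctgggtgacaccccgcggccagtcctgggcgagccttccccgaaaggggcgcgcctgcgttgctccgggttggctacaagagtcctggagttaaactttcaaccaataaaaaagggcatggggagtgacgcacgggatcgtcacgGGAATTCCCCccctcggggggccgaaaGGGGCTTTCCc
It holds 2 matches. Such a match was in 1244 of 27025 promoters of this length (4.60%) and in 4 of the 14 list promoters in the table (Rel, Nfkb2, Nfkbia and Tnfaip3). It was also in 3 of 8 chemokine promoters, Cxcl10, Ccl9 and Cxcl2, genes that were lower by line than in type 2 cells. Of uptake and sensing promoters 3 of 12 held it, and of mature signature promoters 0 of 14. Any link between the motif and these levels was not tested.

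Genes of the migratory and mature program outside those families were higher. Cacnb3, a calcium channel subunit, was 276, 205 and 159 CPM in members and 0 in the type 2 cells of all 3 tumours, at least 12.7-fold higher. Tbc1d4, a GTPase-activating protein for Rab proteins, was 377, 958 and 376 CPM against 42.8, 0 and 17.5 CPM (4.42 ± 0.54, adjusted p = 2.0e-05). Fabp5, a fatty acid carrier, was 1629, 2907 and 1423 CPM against 128, 170 and 87.7 CPM (3.94 ± 0.27, adjusted p = 7.5e-08). Serpinb6b, Serpinb9, Samsn1, Marcksl1 and Tmem123 had log2 fold changes of 4.40, 2.65, 3.30, 2.31 and 2.72, and no tumour's members fell below any tumour's type 2 cells. Nudt17, Mreg and Spint2 had 0 counts in type 2 cells and were higher, Nudt17 at least 9.09-fold and Spint2 at least 7.32-fold. How many of all genes separate in this way was not computed. Of the tested genes of the migration list 10 of 10 were higher by tumour (median log2 fold change 2.17), and of the mature signature 11 of 12 (median 2.69). Of all 1448 genes tested by tumour 6.91% were higher, with a median of 0.05. By line 13 of 15 migration genes were higher than in type 2 cells, beside 22.8% of all genes. The inflammatory chemokine receptor gene Ccr2 was lower, at 0 to 12.7 CPM against 49.6 to 229 CPM. The dendritic cell identity list went both ways. By tumour 4 were tested, none higher and Ptprc and Cd74 lower. By line 4 of 9 were higher (Flt3, Zbtb46, Traf1 and Cd83) and 4 lower (Itgax, Ptprc, Cd74 and Ciita). Against type 1 cells 2 of 7 were higher and 4 lower, the same 4 genes.

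The genes for uptake and sensing that could be tested were mostly lower than in type 2 cells. Clec10a, a C-type lectin, was 4.22, 11.4 and 3.06 CPM in members against 300, 242 and 246 CPM (-5.63 ± 0.66, adjusted p = 1.4e-05), a gene that is itself a type 2 marker. Cd14, the co-receptor for lipopolysaccharide, was 4.22, 0 and 9.18 CPM against 171, 339 and 105 CPM (-4.70 ± 0.78, adjusted p = 3.4e-04). Fcgr2b, Clec4n and Fcer1g, which encode an inhibitory Fc receptor, a fungal lectin and the Fc receptor gamma chain, changed by -4.21, -3.92 and -2.52 on the log2 scale. Of the 15 uptake and sensing list genes in the data, 4 of 4 tested were lower by tumour and 5 of 5 by line against type 2 cells. Over all genes 6.91% and 20.8% were lower. At every depth by line 6 of 7 tested were lower and 1 was not called, beside 9.27% of all genes lower. Against type 1 cells 2 were tested by line, with Fcgr2b lower and Fcer1g not called (0.75 ± 0.35, adjusted p = 0.095), and at every depth Axl was higher (2.02 ± 0.59, adjusted p = 0.0092). Cd300a and Cd53, which are on no list, were the other large decreases, at -4.88 and -4.45. Summed monocyte markers stood at 1327 CPM in type 2 cells and 137 CPM in members, and macrophage markers at 213 and 48.4 CPM, and their part in these decreases was not tested.

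Genes of the MHC class II pathway were lower in part, and some of MHC class I presentation were higher. Cd74, the invariant chain of MHC class II and a receptor component for MIF, was 7264, 8778 and 6059 CPM in members and 17526, 27205 and 16517 CPM in type 2 cells (-1.41 ± 0.13, adjusted p = 1.9e-06). Over all members Cd74 was 12564 CPM in the shallower and 3687 CPM in the deep ones, and the sums by tumour hold both. The part of the deep members in that change was not tested. Cd74 was also called lower by line in the shallower cells. H2-DMb1, a chain of the peptide exchanger H2-DM, was 44.3, 34.2 and 33.7 CPM against 714, 654 and 491 CPM (-3.95 ± 0.34, adjusted p = 1.1e-06), and H2-DMa was also lower (-2.43 ± 0.31). Against type 1 cells by line H2-DMb1 was lower as well (-3.85 ± 0.31, adjusted p = 2.9e-09). Of the class II list 4 of 7 tested genes were lower than in type 2 cells by tumour and none higher, and by line 5 of 9 were lower and Lgmn was higher. Of all genes tested 6.91% were lower by tumour and 20.8% by line. Of the MHC class I list 2 of 11 tested genes were higher by tumour, beside 6.91% of all genes. By line 9 of 11 tested genes were higher than in type 2 cells, among them H2-K1 (1.26 ± 0.12) and the proteasome activator Psme2 (1.95 ± 0.14), and none lower, against 6 of 12 at every depth. The shares of all genes higher were 22.8% by line and 9.39% at every depth. Against type 1 cells 6 of 11 were higher by line, beside 23.4% of all genes. At every depth 4 were higher and 2, Psmb8 and Psmb9 of the immunoproteasome, were lower, beside 16.5% and 10.1% of all genes.

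The type 1 comparison gave the same sides for the mature program. Fabp5 was 2183 to 5595 CPM in members and 0 to 48.9 CPM in type 1 cells by line (3 counts, a ratio of 248 with a counting interval from 84.6 to 1201). Zmynd15, Mreg, Nudt17, Tnfrsf4, Il7r and Socs2 had 0 type 1 counts and were at least 24.5-fold, 19.8-fold, 19.3-fold, 11.8-fold, 9.61-fold and 43.9-fold higher. Cacnb3 (2 type 1 counts), Birc2 (3) and Cd1d1 (2) had ratios of 45.0, 11.9 and 12.8, with counting intervals from 12.4 to 373, 4.0 to 58.1 and 3.48 to 107. Tmem123 had a log2 fold change of 5.02. The decreases furthest from 0 were Plet1, with 1 count in members and 137 in type 1 cells, and Sept3, BC028528, Naaa and Gpr171, with log2 fold changes of -6.13, -5.99, -5.91 and -5.67. Naaa, on the type 1 marker list, was 3.71 to 24.6 CPM in members and 413 to 1384 CPM in type 1 cells. Havcr2, the gene of TIM-3, was 0 to 7.86 CPM against 48.9 to 413 CPM. The interferon genes Isg15, Gbp2, Irf1 and Bst2 were higher and Irf7 lower than in type 1 cells, and at every depth Gbp2 and Irf1 were not called (adjusted p = 0.11 and 0.053). Against type 2 cells none of 7 tested interferon genes was higher by tumour and Rsad2 and Irf7 were lower (median -0.36). By line 3 of 10 were higher, among them Irf1 and Isg15, and Ifit3, Irf7 and Bst2 were lower (median -0.28). Of all genes tested by line 22.8% were higher and 20.8% lower, so these counts do not set the interferon list apart. With 37 type 1 cells these values rest on few counts.

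Members differed among themselves. They were sorted by 8 type 1 markers (Xcr1, Clec9a, Wdfy4, Naaa, Cadm1, Tlr3, Itgae and Rab7b, without the broadly detected Irf8 and Batf3) and 8 type 2 markers (Cd209a, Clec10a, Mgl2, Sirpa, Irf4, Cd209d, Clec4a1 and Itgam). Of all members 20.9% had a UMI of these type 1 genes alone, 17.8% of the type 2 genes alone, 11.8% of both and 49.6% of neither. Of the type 1 markers kept, Cadm1 alone passed 10% of members, and its part in these shares was not tested. Among the 356 shallower members those shares were 9.27%, 22.2%, 5.34% and 63.2%, so the balance between type 1 and type 2 markers turned with depth. In 405 members thinned to 2000 UMIs each, Ccl22 had a UMI in 49.9%, Il12b in 22.7%, Ccl5 in 61.2% and Il4i1 in 48.6%. Ccl22 was in 68.5% of thinned members with Il12b and in 44.4% of those without, and Ccl17 was in 15.8% of members with Ccl22 and 0.985% of those without. Cd274 did not separate by Il12b in the same way, with 43.5% and 41.9%. Of the 405 thinned members 277 were shallower ones before thinning. Ccl22 was 1074 CPM in the shallower members and 166 CPM in the deep ones. The part of this mixture in the co-detection was not tested. These are counts of cells pooled over tumours and have no test.

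Between groups, no gene of the members passed the test. The fit held 14 tumours with at least 10 members, 5 of control lines and 9 of KO lines, with day as a term. Of 3628 genes tested 0 were called (0%), with 262 at an unadjusted p under 0.05, and DESeq2 called 0 with 203. Mif in the members was 346, 1203, 1499, 1661 and 2348 CPM in the control tumours and 120 to 1729 CPM, with a median of 286, in the KO tumours. The overlap lay in the mixed libraries. The 6 KO tumours of single-line libraries ran from 120 to 456 CPM, below the 1203 to 2348 CPM of the 3 control tumours of such libraries, while the 3 KO tumours of mixed libraries ran from 933 to 1729 CPM and the 2 control tumours there had 346 and 1499 CPM. The log2 fold change was -1.02 ± 0.56 (adjusted p = 0.71). Since Mif was 1624 to 2689 CPM in control cells without Ptprc, RNA from such cells may be in these values, and its part was not tested. Cd74 gave 0.08 ± 0.16 (adjusted p = 0.95) and Cd44, its signalling partner, 0.26 ± 0.27 (adjusted p = 0.86).

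The mature genes showed no call either way. Ccl22 was 316 to 757 CPM in control tumours and 248 to 936 CPM in KO tumours (0.11 ± 0.31). Il12b was 282 to 649 CPM and 27.5 to 1060 CPM (-0.14 ± 0.54), with KO tumours on both sides of the controls, 3 above and 5 below all of them. Relb gave 0.07 ± 0.23, Cd274 -0.04 ± 0.27 and Cd40 0.58 ± 0.32. Of the tested list genes, 0 of 14 costimulation, 0 of 15 NF-kB and 0 of 16 mature signature genes were called. Gbp2, an interferon-induced GTPase, was 10.8 to 136 CPM in control tumours and 80.3 to 441 CPM in KO tumours (1.41 ± 0.46, adjusted p = 0.58), with 5 of 9 KO tumours above every control. All 8 tested cell cycle genes had a log2 fold change under 0 (median -0.91, beside -0.02 over all 3628 genes), among them Birc5 at -1.50 ± 0.46 (adjusted p = 0.58). None of these genes was tested in the shallower members with at least 5 per tumour, and Mki67 was the gene found more often in deep members above, whose part in these values was not tested. Of 9 tested interferon genes 8 had a log2 fold change above 0 (median 0.74), none called. Without the low-count filter, where the median over all genes was 0.24 against -0.02 with it, Isg15 (1.06, adjusted p = 0.0011) and Gbp2 (1.54, adjusted p = 0.0029) were called. In the shallower members of at least 10 per tumour they were 0.23 and 0.79 (adjusted p = 0.83 and 0.63). Leaving out line 19 called 3 genes on no list, all higher in KO, Ccnd2, Ly6a and Iigp1, the last an interferon-induced GTPase. The 3 calls in the shallower members with at least 10 per tumour were all lower in KO, Col1a1 (on the non-immune marker list), Crabp1 and Prnp. Fits of other kinds called 0 to 43 genes.

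With the shallower members and at least 5 per tumour, an alternative added after the data were seen, 28 of 647 genes were called (4.33%) over 8 control and 12 KO tumours, 17 higher and 11 lower in KO. Of the 17, 14 encode ribosomal proteins, a group noticed after the values were seen. Of 78 such genes tested 14 were higher and none lower, and all 78 had a log2 fold change above 0 (median 0.36, beside -0.04 over all 647 genes). With relative log expression (RLE) scaling 9 of the 78 were higher, again with all 78 above 0, of 22 calls. In the members of every depth 72 of 80 were above 0 (median 0.13) and none was called. Of the other 569 genes 14 were called. Cd83 was lower, 547 to 1729 CPM in control tumours and 341 to 860 CPM in KO tumours (-0.88 ± 0.19, adjusted p = 0.028). Cd86 was lower, with medians of 561 and 271 CPM (-0.86 ± 0.24, adjusted p = 0.045), and so was Tnfrsf9, which encodes 4-1BB, with medians of 339 and 69.3 CPM (-2.06 ± 0.44, adjusted p = 0.028). The groups overlapped for each of these 3 genes. In the members of every depth the values were -0.59 ± 0.22 (Cd83), -0.26 ± 0.23 (Cd86) and -0.72 ± 0.38 (Tnfrsf9), none called. In the shallower members with at least 10 per tumour (11 tumours) they were -0.55, -0.50 and -1.65, again none called (adjusted p = 0.51, 0.62 and 0.19).

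Between day 16 and day 6, 2 of 3628 genes were called (0.0551%), both lower at day 16 and both induced by interferon. Isg15, a ubiquitin-like modifier, was 571 to 1632 CPM in the 8 day 6 tumours, with a median of 1119. At day 16 it was 372 (line 19), 909, 723 and 599 (line 24) and 64.9 CPM (line 18), so 2 of 5 lay below every day 6 tumour. Its log2 fold change was -1.70 ± 0.31 (adjusted p = 0.032) with line as a term. Ifi27l2a, a small mitochondrial protein gene of the interferon response that is on no list, was 194 to 1322 CPM at day 6 and 195 to 441 CPM at day 16, and the ranges overlapped (-1.73 ± 0.31, adjusted p = 0.032). Of 9 tested interferon genes Isg15 alone was called, 6 had an unadjusted p under 0.05, and the median log2 fold change was -0.80, beside 0.01 over all genes. Gbp2 gave -0.97 ± 0.44 (adjusted p = 0.86).

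**Figure D5:**
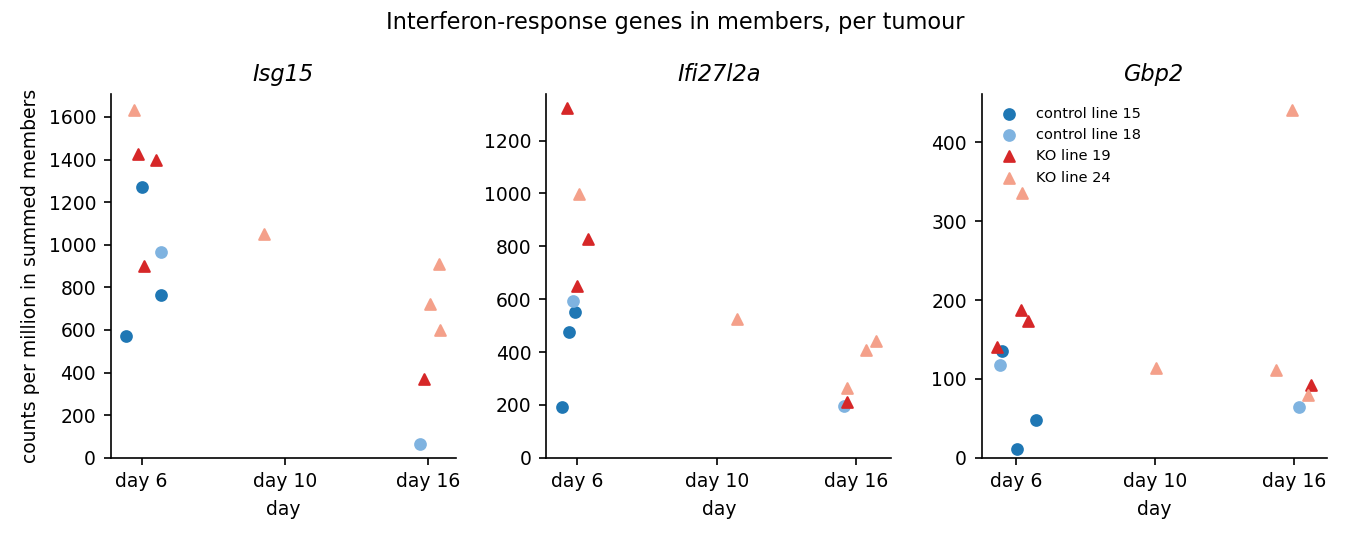
CPM of Isg15, Ifi27l2a and Gbp2 in the summed members of each of the 14 tumours with at least 10 members, by day, with circles for control and triangles for KO lines. Isg15 is at 571 to 1632 CPM at day 6 and 64.9 to 909 CPM at day 16.

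Both calls were lost without line 18 (adjusted p = 0.062 for both), without line 19 (adjusted p = 0.52 and 0.53) and without line 24 (adjusted p = 0.22 and 0.38). They were also lost with members thinned to 2000 UMIs (adjusted p = 0.10 and 0.054), and with at least 5 members per tumour (adjusted p at least 0.52). Both held in the shallower members with at least 10 per tumour (adjusted p = 0.037 for Isg15 and 0.0081 for Ifi27l2a). There day 16 rested on KO tumours alone, with 17 (line 19), 34 and 14 (line 24) such members. In the shallower members with at least 5 per tumour Isg15 was not called (adjusted p = 0.11) and Ifi27l2a was (adjusted p = 0.018). DESeq2 called Isg15 and 6 mitochondrial genes, the latter higher at day 16, and gave no adjusted p for Ifi27l2a. Line 15 had no day 16 tumour in the fit. Ccl22 (0.09 ± 0.34), Il12b (-0.61 ± 0.42), Cd83 (-0.15 ± 0.26) and Cd86 (-0.69 ± 0.28, with all 5 day 16 tumours below every day 6 tumour) were not called between days.

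The promoter of Isg15 is printed because it is the list gene called between days, with that of Gbp2 beside it as an interferon gene with higher values in KO tumours that was not called. Each is the 250 bases before the RefSeq start on GRCm38.p6, Isg15 at chr4:156200819-156201068 on the minus strand and Gbp2 at chr3:142620413-142620662 on the plus strand, with capitals at matches to an ISRE-type motif on either strand, GAAA and GAAA with any 2 bases between them.
Isg15: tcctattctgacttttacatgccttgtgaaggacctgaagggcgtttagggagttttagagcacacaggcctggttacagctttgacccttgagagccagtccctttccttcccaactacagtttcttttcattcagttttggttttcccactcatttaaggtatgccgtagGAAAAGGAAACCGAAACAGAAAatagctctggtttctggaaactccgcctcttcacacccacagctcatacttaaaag
Gbp2: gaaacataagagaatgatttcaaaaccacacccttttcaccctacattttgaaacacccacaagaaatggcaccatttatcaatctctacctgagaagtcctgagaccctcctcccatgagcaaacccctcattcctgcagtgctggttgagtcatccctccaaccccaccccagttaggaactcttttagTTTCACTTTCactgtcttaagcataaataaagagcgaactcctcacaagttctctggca
Isg15 holds 3 overlapping matches and Gbp2 holds 1. A match was in 821 of 27025 promoters of this length (3.04%), and in 7 of the 12 promoters of the interferon list in the table (Isg15, Ifit1, Ifit3, Stat2, Rsad2, Gbp2 and Bst2). Ifi27l2a was not matched in the table.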

How the data were processed

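For 6 libraries the matrices deposited by the authors hold raw UMI counts for 32285 genes and 10 hashtags, made with Cell Ranger 6.0.0 on mm10 per the submitters' processing notes. The gene annotation is not stated. Total UMIs per library ran from 151385933 to 239699029. Hashtags were matched to line and day (other values, not measurements) through the authors' deposited sheet. Members were summed per tumour with at least 10 members and tested in edgeR 4.0.16 (filterByExpr, TMM, quasi-likelihood F-test, Benjamini-Hochberg adjustment over all genes tested, threshold 0.05), with day (KO against control) or line (day 16 against day 6) as a term. Members and conventional dendritic cells were paired by tumour, which was the block, or by line. Gate genes entered library sizes but no test. DESeq2 1.42.0 was an alternative. CPM values are unscaled and computed from these sums. Shares were tested in SciPy 1.17.1 over tumours. Tests compare mean shares; cells are not replicates.

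Members and gene lists were chosen with earlier results of these data known. Named genes are the gate genes, up to 25 list genes per comparison (called genes first), and the 5 largest changes each way with logCPM of at least 5. On simulated counts with 4-fold changes the fits recovered 98.0% of changed genes (KO against control, 3058 genes), 91.5% (day, 3008 genes), 93.9% (type 2, 1279 genes), 95.9% (type 2 by line, 2093 genes) and 97.5% (type 1 by line, 1292 genes). The changed genes were drawn from those above the median level. Every gene had the same fixed dispersion, with no added effect of line or day. These percentages therefore do not measure how many real changes the fits would find. Intervals and limits cover counting error only. A few genes of the lists are not reported here by name.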

Additional observations from a re-analysis of the deposited data

Results flagged for a closer look

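At day 10 the highest KO tumour had a member share of 0.428%, apart from the next at 0.223% among 6 tumours. At the same day the highest control tumour had 0.743%, apart from the next at 0.228% among 6. The change from day 10 to day 16 differed between KO and control tumours by 0.448 points (permutation p = 0.0117, adjusted p = 0.0352), a difference that includes both of those tumours. Il4i1 in members was 864 CPM in the highest of 5 control tumours, with the next at 377 CPM. Chance sets apart about 1 in 20 groups, and 34 groups of gene values were looked at.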

How the results depend on the processing

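The overall KO minus control share (0.251 points) kept its sign under every alternative run. It missed the threshold with thinned cells (0.228), with a Ptprc UMI and 2 of 8 further genes required (0.0674), with the stricter cell filter (0.268), with a hashtag ratio of 5 (0.219), per 100 cells with Ptprc (1.13, or 2.36 with cells thinned), among the 3 dendritic cell gates (2.82) and in the mixed libraries alone (0.232). Leaving out each line gave 0.122 (without 18) to 0.381 (without 15), past the threshold only without 15. At day 16 alone the difference missed it among the 3 gates (5.65) and in the mixed libraries (0.242, where 2 tumours against 2 allow no p under 0.333), with 0.320 to 0.501 when a line was left out. The difference of changes from day 10 to 16 missed it among the 3 gates (4.61) and in the mixed libraries (0.218, smallest possible p 0.0556), with 0.371 to 0.525 by line left out. Day 16 minus day 6 turned to 0.106 among the 3 gates (permutation p = 0.983), missed the threshold in the mixed libraries (-0.498) and ran from -0.542 to -0.299 by line left out. Day 10 minus day 6 missed it in the mixed libraries (-0.650) and ran from -0.714 to -0.383 by line left out.

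Genes called between groups numbered 43 without the count filter, 2 with 1 sum per line, 3 with thinned members, 3 and 28 with the shallower members (28 with at least 5 per tumour, 22 of that kind with RLE scaling), and 0 to 3 by line left out. Between days they were 7 with DESeq2, 28 without the filter, 0 and 11 with at least 5 and 20 members per tumour, 5 with library as a term, 1 with thinned members, 1 with shallower members and at least 5 per tumour, and 0 to 2 by line left out. Against type 2 cells by tumour (200 calls) DESeq2 gave 112, at least 5 cells per class 405 and thinned cells 108, and the fit without the replicate block, that is without pairing by tumour, 113; without line 24 there were 160. Lines 15 and 18 have no tumour in that fit, so leaving them out is no alternative there. By line (1060) there were 592 with DESeq2 on cells of every depth, 556 thinned, 672 without the replicate block and 763 to 1070 by line left out. Against type 1 cells (676) there were 292 thinned, 448 without the replicate block and 435 (without 19) to 626 by line left out. Cd83 against type 2 cells was -0.21 by tumour, 0.19 by line at every depth (not called), and 0.54 (edgeR) and 0.60 (DESeq2) by line in the shallower cells, where leaving out a line gave 0.44 to 0.75. Of 642 values of the other settings for 35 type 2 genes, 607 kept side and direction. The causes were not tested. Fits with at least 20 members (KO), the gate with Ptprc and 2 of 8 further genes (KO and days; 157 calls against type 2 cells, in 2 tumours), the mixed libraries alone (days), the type 1 tumour fits and the type 2 fit without line 19 could not be fitted. The type 1 comparison rests on 37 cells.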

Other observations

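The 3 tumours called WT, which the labels put in no group, held members at 0.408% of assigned cells at day 6, 0.0632% at day 10 and 0.187% at day 16. Their 20 members had 155 CPM of Cd40, 833 CPM of Ccl22, 143 CPM of Il12b and 1583 CPM of Mif. The corresponding Mif level in their cells without Ptprc ran from 2144 to 2488 CPM.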
